A study of Mus musculus with 40 samples.

Results

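*Tmem119* was followed through all 40 libraries of retina and choroid from mice with laser-induced choroidal neovascularization (CNV). It is 1 gene of the 54307 listed, found by its Ensembl identifier ENSMUSG00000054675, and it was chosen by its measured values, namely the response to the diet in each tissue and the level in choroid. Those values are therefore given as a description without a test, while the genotype comparisons, which the choice did not use, were tested. *Tmem119* is a protein-coding gene on the minus strand of chromosome 5 of GRCm39, from 113931781 to 113938577. It has 6 annotated transcripts with 4 different start positions, and the coding sequence, from 113932957 to 113933799, lies within the last exon, from 113931781 to 113933814.

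TMEM119 is a single-pass membrane protein. In brain and retina it is best known as a marker of resident, homeostatic microglia, whose gene programme depends on TGFβ, and it is widely used there to tell microglia from infiltrating macrophages. Outside the nervous system the same protein was described as an osteoblast induction factor, made by bone-forming and other mesenchymal cells and linked to BMP, SMAD and RUNX2 signaling.

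The retina and the central choroid with its lesions were sequenced from the same 20 mice, 3 days after 6 laser burns per eye. All mice carried floxed *Tgfbr2* alleles (*Tgfbr2* fl/fl, C57BL/6J, both sexes) and received tamoxifen eye drops for 5 days at 6 to 7 weeks of age. *Tgfbr2ΔEC* mice also carried the inducible recombinase Cdh5-CreERT2, which is driven by an endothelial promoter, and controls were littermates without it. PLX5622 (PLX), an inhibitor of the CSF1 receptor that depletes mononuclear phagocytes, was given in the diet (+ PLX) or not (– PLX) from the first tamoxifen dose to the end, with 5 mice in each of the 4 groups. In bulk tissue, fewer cells of a type and less RNA per cell cannot be told apart.

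Values are the authors' normalized counts, with both tissues on one scale. The approximate depth was 20940403 to 30421581 reads per retina and 21628874 to 28331348 per choroid. The floxed gene itself, *Tgfbr2*, ranged from 66.4 to 292.9 normalized counts in the retinas and from 8729 to 12801 in the choroids, and no genotype difference was detectable in either tissue or diet (log2 differences of -0.32 to 0.02, limma adjusted p from 0.925 to 1.0). Whole tissue holds many cells besides endothelium, so this does not measure the deletion. Each tissue was checked by its own genes. 10 photoreceptor genes were in choroid at 0.174% to 9.93% of their level in the retina of the same mouse, with a median of 1.46%, and the 10 genes of the retinal pigment epithelium had a median choroid-to-retina ratio of 43.6. The choroid libraries also held melanocyte, Schwann cell and skeletal muscle genes.

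*Tmem119* was present in every retina without PLX and nearly absent from every retina with it. In control – PLX retinas the 5 mice had 81.7, 73.8, 53.2, 61.6 and 68.0 normalized counts, a mean of 67.7 ± 10.97 (SD, n = 5). In *Tgfbr2ΔEC* – PLX retinas they had 53.4, 73.4, 67.2, 64.3 and 47.7, a mean of 61.2 ± 10.5 (SD, n = 5). In control + PLX retinas *Tmem119* was listed at 0 in 4 mice and at 1.07 in mouse 14, and in *Tgfbr2ΔEC* + PLX retinas it was listed at 0 in 4 mice and at 1.02 in mouse 18. The lowest retina without PLX thus lay far above the highest with PLX, and the groups did not overlap.

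Both values above 0 correspond to about 1 read each, and a count of 0 allows up to 3 reads in a library. Summed over the mice, about 2 reads with PLX stood against 696 without. The mean with PLX was 0.325% of that without (counting interval 0.0361% to 1.08%), a 308-fold ratio (92.4 to 2771). These exact binomial intervals cover counting error alone and rest on approximate reads rounded to whole numbers. On the log2(value + 1) scale, which understates the fall of a gene that reaches 0, the difference was -5.88 in control and -5.74 in *Tgfbr2ΔEC* mice (standard error 0.314 each).

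In choroid the level was higher, in mice with and without PLX. In control – PLX choroids the mice had 1708, 1882, 1366, 1352 and 1622 normalized counts, a mean of 1586 ± 228 (SD, n = 5). In *Tgfbr2ΔEC* – PLX choroids they had 1331, 1436, 1485, 1822 and 1664, a mean of 1548 ± 195 (SD, n = 5). All 4 choroid groups overlapped with each other.

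With PLX, the control choroids had 2002, 1991, 1266, 1324 and 1473 normalized counts, a mean of 1611 ± 360 (SD, n = 5). The *Tgfbr2ΔEC* + PLX choroids had 1610, 1704, 1445, 1564 and 1715, a mean of 1608 ± 111 (SD, n = 5). Among the controls with PLX, mice 11 and 12 were the highest of all 40 libraries and mouse 13 was the lowest choroid, so that this group had the widest spread.

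**Figure D1:**
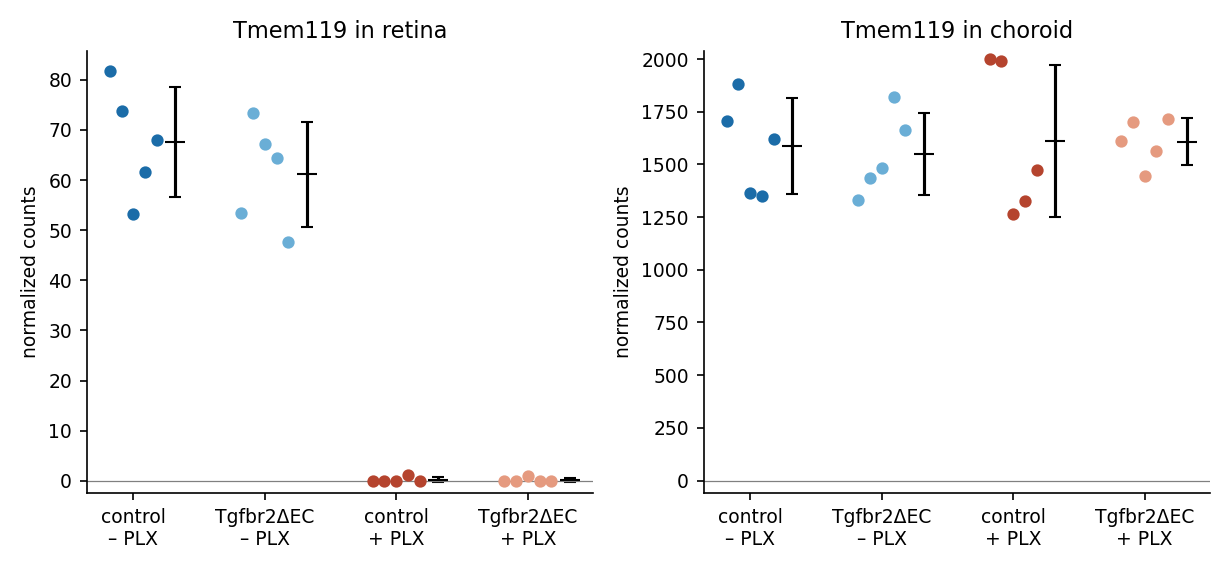
Normalized counts of *Tmem119* in each mouse, in retina (left) and choroid (right), for the 4 groups, with axes that include 0. Each point is 1 mouse and the bars are mean ± SD (n = 5); the retinas with PLX lie at 0 or near 1, while the choroids lie between 1266 and 2002 in all groups.

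The log2 difference between the diets in choroid was 0.01 in control and 0.06 in *Tgfbr2ΔEC* mice (standard error 0.132 each). Over both genotypes it was 0.03 (standard error 0.093). In retina the value over both genotypes was -5.81 (standard error 0.222). Within mice, the retina response minus the choroid response was -5.84 on the log2 scale (standard error 0.234). Ordered by level, the 8 groups formed 3 steps, the retinas with PLX, the retinas without PLX and the 4 choroid groups. Neighbours within a step differed by less than their spread.

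Endothelial deletion of *Tgfbr2* was compared with control in each tissue and diet, to ask whether *Tmem119* depends on the genotype. No difference was detected where the gene was above the floor. Without PLX the log2 difference was -0.14 in retina (standard error 0.314, 95% interval -0.80 to 0.51, limma adjusted p = 0.986, two-sided exact permutation p = 0.357). This fit pools the spread of all 4 groups, also those at the floor. With the 10 mice without PLX alone the standard error was 0.202. In choroid the log2 difference without PLX was -0.03 (standard error 0.132, 95% interval -0.31 to 0.24, limma adjusted p = 0.978, exact permutation p = 0.817). The mean score of the photoreceptor genes in these choroids was 9.263 in controls and 11.85 in *Tgfbr2ΔEC* mice, and with this score in the fit the difference of *Tmem119* was 0.03 (limma adjusted p = 1.0). With PLX it was 0.02 in choroid (limma adjusted p = 1, exact permutation p = 0.897). In the retinas with PLX both genotypes were at the floor, with 4 mice at 0 and 1 mouse at about 1 read in each, so that a genotype difference could not have been seen there. The genotype-by-diet difference was 0.05 in choroid (limma adjusted p = 0.993), and in retina it rests on the same floor and is not interpreted.

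These p-values were adjusted over all genes. In retina 0.0% of 23243 genes (0 genes) passed adjusted p at or under 0.05 for genotype in either diet, with 758 genes at an unadjusted p under 0.05 without PLX and 629 with PLX. In choroid 0.00423% of 23619 genes (1 gene) passed in each diet, with 2184 genes at an unadjusted p under 0.05 without PLX and 889 with PLX. The smallest p that 5 mice against 5 can give in the exact test is 0.00794, so the design could have shown a difference without overlap.

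The tissue ratio of *Tmem119* was set beside those of genes of known cell types. Without PLX, choroid had 19.6 to 34.9 times the retinal value within the 10 mice, with a median of 24.4, and the ratio of the means was 24.3. This was above all 9 homeostatic microglia genes, whose ratios ran from 0.116 to 6.6 with a median of 5.24. It was within the range of 15 general phagocyte genes (10.6 to 47.1, median 20.99), of which 4 lay above it. Of 19 stromal fibroblast genes, 17 had a higher ratio than *Tmem119* (median 255), and so had 8 of 10 melanocyte genes (median 184) and 6 of 7 genes of perivascular and tissue macrophages (median 113). Among all 21181 genes with a mean of at least 1 in both tissues the median ratio was 0.968, and 4.12% lay above *Tmem119*. The mural (21.2), bone formation (16.5) and pan-endothelial (12.5) lists had medians nearer to it, and the list of BMP and SMAD partners had a median of 1.57.

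**Figure D2:**
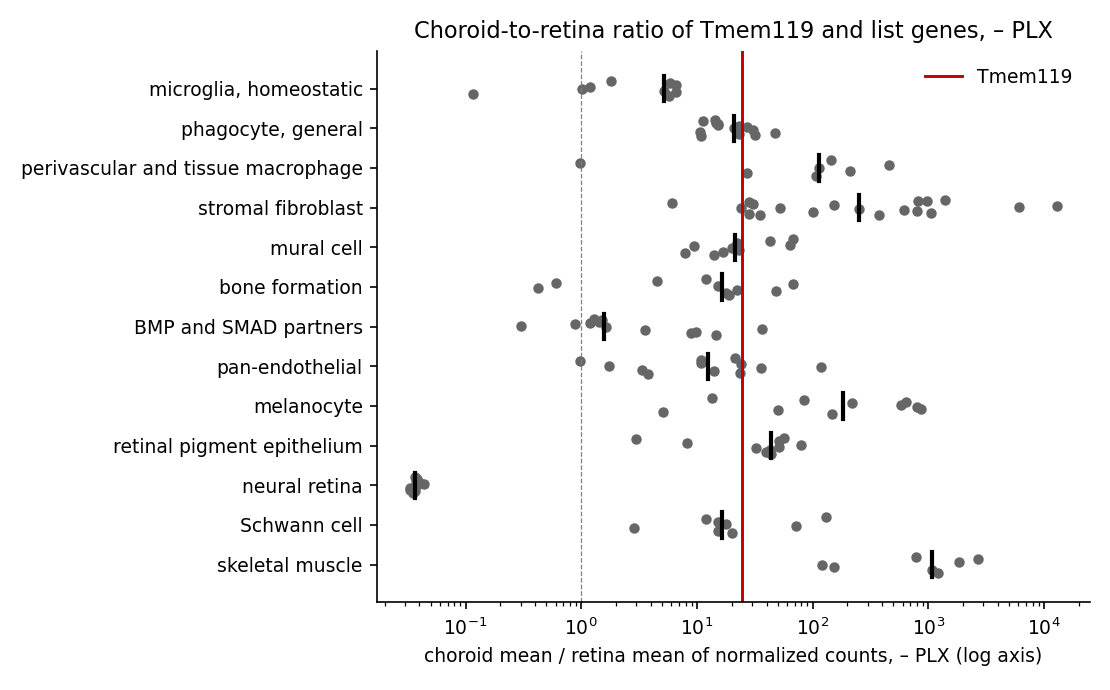
Ratio of the choroid mean to the retina mean of normalized counts without PLX (n = 10 mice per tissue, log axis), for the genes of each list (points, with the median as a black bar) that reached a mean of 1 in both tissues. The red line is *Tmem119* at 24.3, to the right of all 9 homeostatic microglia genes and to the left of 17 of 19 stromal genes.

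Genes typical of each tissue had values above 0 in the other, and whether this was RNA carried over was not tested. At the share given by the photoreceptor genes, retina would account for up to 6.39 of the normalized counts of *Tmem119* in a choroid, or up to 0.365% of its level there. Whether RNA of retinal microglia entered the choroid samples at that share was not tested. In the other direction, the stromal genes were at a median of 0.136% to 0.366% of their choroid level in the retinas with PLX, and the same share of choroidal *Tmem119* would be 2.21 to 7.33 normalized counts there. The measured values there, 0 to 1.07, were below this.

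The diet comparison asks which cell types *Tmem119* moved with. In retina, 1.08% of the 23243 genes tested fell with PLX and 0.0172% rose (limma adjusted p at or under 0.05). Of the 9 homeostatic microglia genes 8 fell, with a median log2 difference of -4.96 against 0.00 over all genes, and all 15 general phagocyte genes fell (median -5.84). The log2 differences were -7.36 for *Cx3cr1*, the fractalkine receptor, -5.97 for *Selplg*, a selectin ligand, and -3.22 for *P2ry12*, a purinergic receptor. *Tmem119*, at -5.81, lay between them. *Slc2a5*, a fructose transporter, was the exception with -0.69 (limma adjusted p = 1.0).

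Among general phagocyte genes, the log2 differences in retina were -7.45 for the protease gene *Ctss* (cathepsin S), -6.97 for *Mpeg1*, a pore-forming protein of phagocytes, -7.34 for *C1qa*, a chain of the complement protein C1q, and -3.29 for *Csf1r*, the target of PLX5622. Of 7 perivascular and tissue macrophage genes tested, *Mrc1*, *F13a1* and *Pf4* fell in retina. The call of *Pf4* did not hold in 16 of the 20 fits that left out a mouse, nor with a pseudocount of 5, a minimum mean of 10 or the photoreceptor score in the fit. Of 19 stromal genes 1 fell, *Olfml3* (log2 difference -2.1, limma adjusted p = 0.0229), a secreted matrix protein that is also known as a microglia gene. This call was lost when any of mice 1, 2, 5, 8, 12, 19 or 20 was left out. Of 11 bone formation genes *Spp1* fell (-1.55), and 0 genes passed on the mural, pan-endothelial, melanocyte, pigment epithelium, photoreceptor, Schwann cell, skeletal muscle and BMP and SMAD lists.

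In choroid, 5.06% of the 23619 genes tested fell with PLX and 2.07% rose. Here *Tmem119* parted from the microglia genes. Of the 9 homeostatic genes 7 fell (median log2 difference -2.15), as did 15 of 15 general phagocyte genes (median -2.02) and 8 of 8 perivascular and tissue macrophage genes (median -3.81). The log2 differences were -3.47 for *Cx3cr1*, -1.77 for *Selplg* and -3.74 for *Gpr34*, a lysophosphatidylserine receptor. They were -1.35 for *Mpeg1*, -1.17 for *Ctss*, -1.03 for *Csf1r* and -1.86 for *Laptm5*, a lysosomal membrane protein of blood cells. *Stab1*, a scavenger receptor, had -2.22 and *Mrc1*, the mannose receptor, -4.14. The homeostatic genes that did not pass were *Slc2a5* (0.69) and *Sall1* (-0.53), and all other members of these 3 lists had a response below that of *Tmem119*.

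The other cell type lists behaved differently in choroid. Of 20 stromal genes, 5 rose and 0 fell (median log2 difference 0.17), namely *Dcn*, *Col12a1*, *Thbs2*, *Bgn* and *Serpinf1*, by 0.22 to 0.47. The number that rose was between 3 and 8 when single mice were left out and 3 with a covariate for photoreceptor RNA or for sex. The fibrillar collagen genes *Col1a1* and *Col1a2* gave 0.11 and 0.08 (limma adjusted p = 0.618 and 0.637). Of 12 pan-endothelial genes 8 rose (median 0.27), of 10 mural genes 2 (*Myh11* and *Rgs5*), of 10 melanocyte genes 1 (*Kit*) and of 8 Schwann cell genes 1 (*Prx*). Of 13 bone formation genes tested 1 fell, *Spp1* (osteopontin, which phagocytes also make), with -1.66, and *Runx2*, the partner of TMEM119 in osteoblasts, gave 0.02 (limma adjusted p = 0.964). Of 12 BMP and SMAD partners, 10 pigment epithelium genes and 8 skeletal muscle genes, 0 passed. The photoreceptor genes had a median of -1.1 in choroid with 0 of 10 past the threshold. Their mean score was 9.263 without and 9.318 with PLX in control choroids, and 11.85 and 9.552 in *Tgfbr2ΔEC* choroids. With this score as a covariate 6 pan-endothelial genes rose, while *Tmem119* in choroid kept log2 differences of 0.00 to 0.08 between the diets under every setting with all mice.

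**Figure D3:**
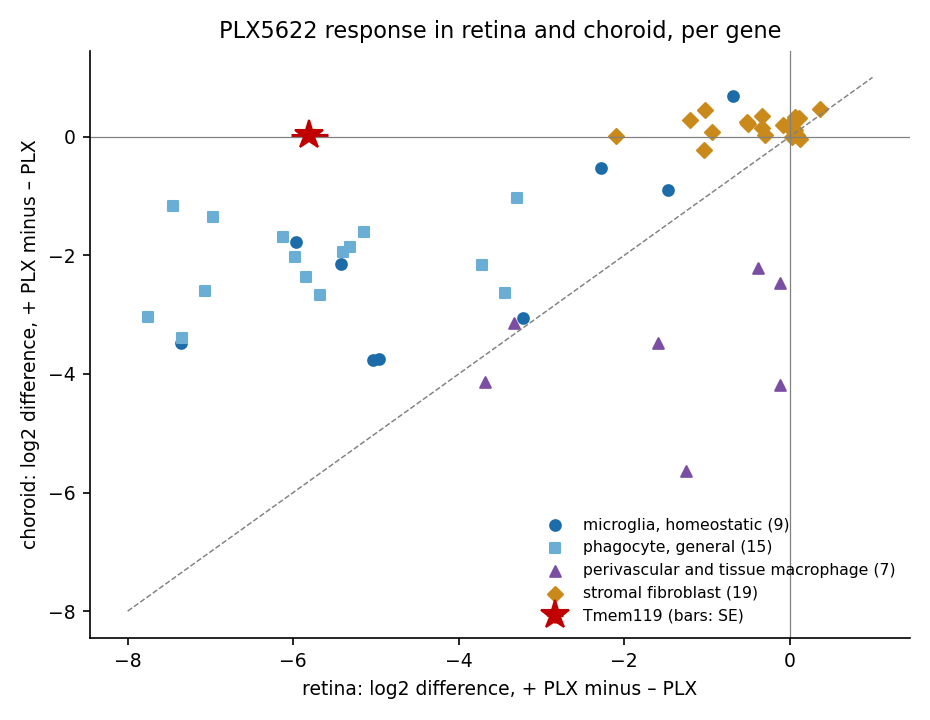
Log2 difference with PLX minus without PLX in retina (x axis) and choroid (y axis), on log2(normalized count + 1), for the genes of 4 lists and *Tmem119* (red star, bars are standard errors). The dashed line marks equal responses; *Tmem119*, at -5.81 and 0.03, has the retinal response of the phagocyte genes and a choroidal response among the stromal genes.

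The difference between the responses of the 2 tissues was tested within mice for the other genes, and 1.0% of 21236 genes passed. The response was more negative in retina for 5 of 9 homeostatic microglia genes, among them *Selplg*, *Cx3cr1*, *Siglech* and *P2ry13* with differences of -4.2 to -1.26, and for 13 of 15 general phagocyte genes. *P2ry12* had -3.22 in retina and -3.06 in choroid, a difference of -0.16 (standard error 0.287, limma adjusted p = 0.96). For 4 of 7 perivascular and tissue macrophage genes (*Lyve1*, *Cd163*, *Folr2* and *Pf4*) the response was less negative in retina, by 1.88 to 4.38, and for 0 of 7 more negative. *Cd163* and *Pf4* had retinal means of only 2.03 and 2.69 normalized counts without PLX, and 0 with PLX. The floor limited how far these genes could fall in retina, so their differences do not show a weaker loss there. The 4 genes that passed became 2 at a minimum mean of 10 and without mouse 2, 4, 5 or 6. Of 19 stromal genes 1 passed (*Olfml3*, -2.11), and it did not when the photoreceptor score entered the fit. *Tmem119*, at -5.84, had a larger difference than all 9 homeostatic genes and than all general phagocyte genes except *Ctss* (-6.28). This order depends on the pseudocount. With 5 *Tmem119* had -3.76, against -5.04 for *Ctss* and -4.4 for *Mpeg1*, and with 0.5 it had -6.71, against -6.69 for *Ctss*. Without mouse 17 *Mpeg1* (-5.95) also passed *Tmem119* (-5.8).

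The genes that fell in retina mostly fell in choroid as well. Of the 250 that fell in retina, 217 also fell in choroid, which is 86.8% of the retinal list and 18.2% of the 1195 genes that fell in choroid. Their median log2 difference in choroid was -1.65. *Tmem119* is counted among the 250, but both its responses were used to choose it and no call is drawn from them. As a description, 244 of the other genes had a lower choroidal response than *Tmem119*. The 5 with a higher one, named after their values were seen, were *Mlxipl* (0.25), *Steap4* (0.37), *Lefty1* (0.05), *Capn3* (0.13) and *Itpripl2* (0.05), of which *Steap4*, a metalloreductase, rose in choroid (limma adjusted p = 0.00478). Of these, *Capn3*, a calpain protease, came closest to *Tmem119* in retina, from a mean of 47.0 normalized counts without PLX to 1.15 with PLX, against 122 and 140 in choroid. At a retinal log2 difference of -3 or below, a limit also set after seeing the values, 110 genes remained, and 108 of them had a lower choroidal response than *Tmem119*. The choice of *Tmem119* used both responses, so its place in these rankings is not a result. Over all genes the median choroidal response was 0.00, against 0.03 for *Tmem119*.

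Neighbouring genes were examined to see whether the pattern was shared along the chromosome. Within 100 kb lie 11 other annotated genes, of which 5 are protein-coding. *Ficd*, *Sart3*, *Iscu* and *Coro1c* had log2 differences with PLX between -0.09 and 0.19 in retina and between -0.21 and 0.04 in choroid, with 0 of 4 past the threshold in either tissue. The non-coding *Gm43336*, *Gm43335* and *Gm3511* did not pass where they were tested, and the remaining *1700069L16Rik*, *Gm19931* and *Gm17122* were below a mean of 1 in both tissues.

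*Selplg*, which starts 32.1 kb away on the same strand, is itself on the homeostatic microglia list and behaved as a microglia gene in both tissues. In retina it lay between 112.0 and 248.8 normalized counts in control – PLX mice and from 91.4 to 444.0 in *Tgfbr2ΔEC* – PLX, then from 0 to 5.05 in control + PLX and from 0 to 4.96 in *Tgfbr2ΔEC* + PLX. In choroid it ranged from 901.3 to 1166, from 738.5 to 1258, from 185.3 to 543.7 and from 164.6 to 403.3 in the same order. With PLX and without did not overlap in either tissue, and the log2 difference was -5.97 in retina and -1.77 in choroid (limma adjusted p = 1.13e-09 and 2.6e-07). *Tmem119* and its neighbour thus had like responses in retina and unlike ones in choroid.

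Correlations across the 20 choroids were taken after the mean of each group was subtracted, so that diet and genotype do not set them. They are descriptions of 20 libraries, which share depth and tissue composition, and the deviations of *Tmem119* were small, at most 0.34 log2 units from the group mean. A score is the mean log2(value + 1) of a list. With the homeostatic microglia score r was -0.385 (Spearman's rho -0.367), being -0.603 in the 10 choroids without PLX and -0.246 in the 10 with PLX. With the general phagocyte score it was 0.07 (rho 0.05). Without the 2 choroids farthest from the median score these values were -0.387 and -0.03. Taken as they are, without subtraction, the homeostatic score gave -0.152 and the phagocyte score -0.07. *Tmem119* was thus not higher in choroids with more RNA of microglia genes.

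With the stromal fibroblast score r was 0.19 (rho 0.09), but it was 0.605 without PLX and -0.258 with PLX, and -0.03 without the 2 farthest choroids, so the stromal relation did not hold in both diets. Single stromal genes spread widely. Of 20, 13 had r above 0, with a median of 0.104, against a median of -0.004 and a middle range of -0.247 to 0.259 over all 14433 genes with a mean of at least 50. *Col1a2* gave 0.388, *Col1a1* -0.01, *Dcn*, a small proteoglycan, 0.535 and *Col3a1* 0.07. The largest values, named after they were seen, belonged to *Lum* (lumican, a proteoglycan of the corneal and scleral matrix) at 0.758 and *Pdgfra*, the platelet-derived growth factor receptor of fibroblasts, at 0.71. Of the homeostatic microglia genes above a mean of 50, 3 of 7 had r above 0, with a median of -0.03 and a highest value of 0.515.

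The scores of some other lists lay farther from 0 than the homeostatic microglia and stromal scores. The score of BMP and SMAD partners had r = -0.734 (-0.79 without PLX, -0.696 with PLX), and 5 of its 12 members were below the 5th percentile of all genes at -0.491, namely *Id2* (-0.7), *Smad9* (-0.58), *Id3* (-0.535), *Bmpr1a* (-0.529) and *Bmpr1b* (-0.523). *Id2* and *Id3* are transcriptional targets of BMP signaling, and the others are its receptors and a receptor-activated SMAD. The mural score had r = -0.544 (-0.43 and -0.742) and the bone formation score -0.422 (-0.655 and -0.173). The bone formation score includes genes near the floor, such as *Ibsp* and *Bglap*, with choroid means of 0.594 and 0.539 without PLX. Of its 9 members above a mean of 50, 6 had r above 0, with a median of 0.04, so the single genes do not share the sign of the score. The pan-endothelial score had 0.528 (0.301 and 0.643) and the melanocyte score 0.496 (0.067 and 0.805), the latter differing between the diets. *Mlana*, a melanosome protein, stood highest among melanocyte genes at 0.73. The perivascular and tissue macrophage (-0.162), pigment epithelium (0.18), photoreceptor (-0.151) and skeletal muscle (-0.199) scores were nearer to 0. The Schwann cell score had 0.01 over all choroids but opposite signs in the diets (-0.436 and 0.591).

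**Figure D4:**
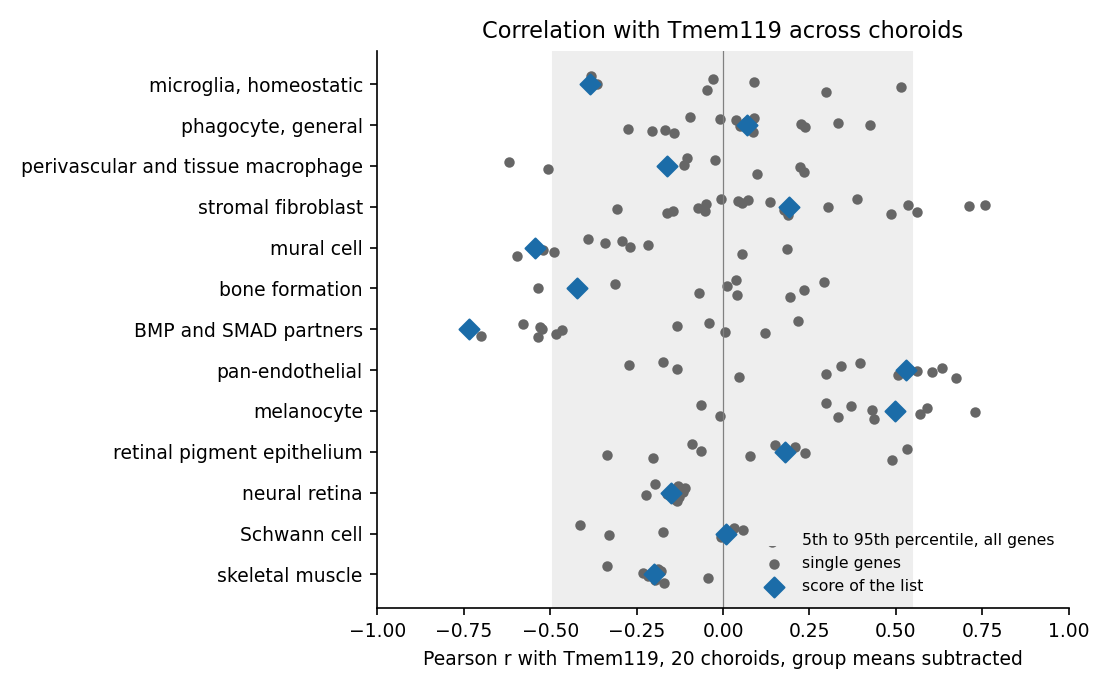
Pearson r of each list gene with a mean of at least 50 (grey points) and of each list score (blue diamonds) with *Tmem119* across 20 choroids, after subtraction of group means. The shaded band holds the 5th to 95th percentile of r for 14433 single genes, -0.491 to 0.547, and applies to the grey points, not to the scores. The scores run from -0.734 for BMP and SMAD partners to 0.528 for the pan-endothelial list.

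**Figure D5:**
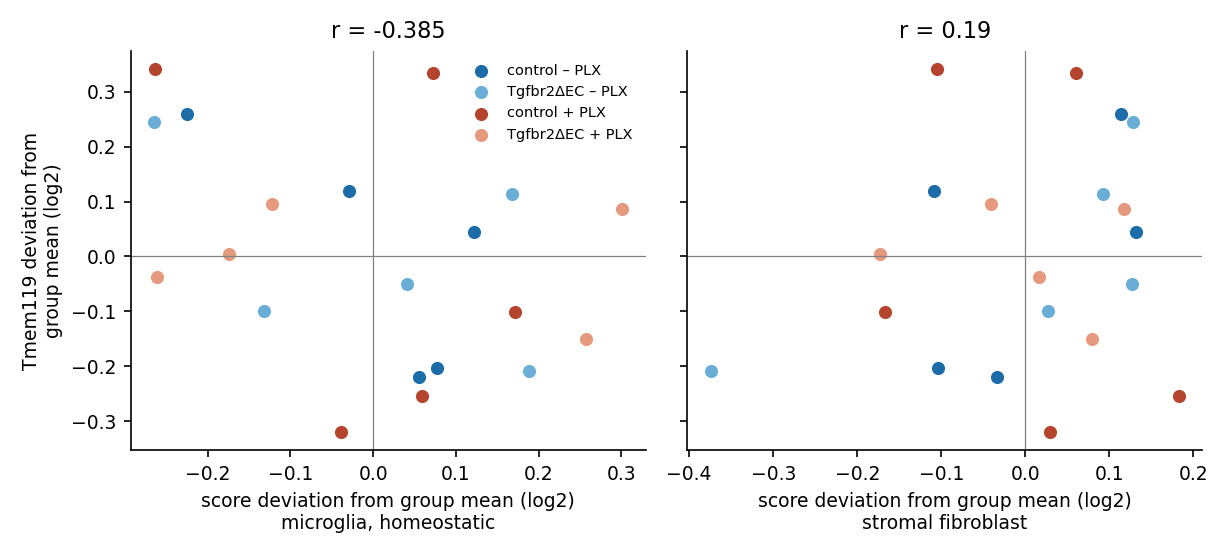
Deviation of *Tmem119* from its group mean (y axis, log2) against the deviation of the homeostatic microglia score (left) and of the stromal fibroblast score (right) in 20 choroids, coloured by group. On the left r is -0.385 (-0.603 without PLX, -0.246 with PLX), and on the right it is 0.19 and changes sign between the diets (0.605 and -0.258).

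The genes most like *Tmem119* differed by tissue. Over the 20 retinas as they are, where the diet sets the pattern, the 10 genes with the highest r included *Cx3cr1* (0.984), *C1qc*, *Tyrobp*, *C1qb*, *C1qa*, *Ctss*, *Mpeg1*, *P2ry12* and *Itgam* (0.955), and all 10 were on the microglia and phagocyte lists. *Cx3cr1* ranged from 143.0 to 375.0 normalized counts in the retinas without PLX and from 0 to 4.19 in those with PLX. Over all 40 libraries they were *Mpeg1* (0.982), *Apbb1ip*, *Tyrobp*, *Ctss*, *Clec7a*, *C3ar1*, *Kcnk6*, *Csf1r*, *Fcgr3* and *Lilrb4a* (0.973), where the difference between tissues is the larger part of the variation.

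Over the 20 choroids with group means subtracted, 0 of the 10 were on any list. They were *Sugp1*, a splicing factor, at 0.847, *Tmem51* (0.831), *Bex3* (0.826), *Colec12*, a scavenger receptor of the collectin family, at 0.821, *Osbpl2*, an oxysterol-binding protein, at 0.817, *H3f3b*, which encodes histone H3.3, at 0.814, *Hpse*, heparanase, at 0.812, *Enoph1* (0.811), *Inka1* (0.809) and *Gnl1* (0.787). Over the 20 retinas with group means subtracted they were *Gm4724* (0.801), *Zfp385c*, *Cop1*, *Lrrfip1*, *Sgsm1*, *Cebpz*, *Plod3*, *Klhl41*, *Taf3* and *Mmp24* (0.649), again none of them on a list. Within the 10 retinas without PLX, r was 0.238 with the homeostatic microglia score, 0.415 with the general phagocyte score and 0.503 with the stromal score (rho 0.2, 0.37 and 0.503). Between the retina and the choroid of these 10 mice, the deviations of *Tmem119* had r = 0.392 (rho 0.37).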

How the data were processed

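RNA-seq libraries of retina and choroid from 20 mice were analysed. The authors quantified reads with salmon 1.10.1 against GRCm39, imported them with tximport 1.24.0 and normalized them with DESeq2 1.36.0, and they deposited this signal per gene, called normalized counts here. Identifiers were matched to GENCODE release M39 (53700 genes, 607 not matched). Whole reads were not recovered (44.8% to 71.5% of low values within 0.1 of a whole read), so no count test was run. The counting intervals of *Tmem119* in retina rest on approximate reads and are a description. Tests used limma 3.58.1 (R 4.3.3) with a variance trend on log2(value + 1) restricted to a tissue mean of 1 or more, 4 groups in one fit, Benjamini-Hochberg adjusted p at or under 0.05. Tissues were compared by the per-mouse difference, since a number marks the same mouse in both (same-mouse deviations over 12525 genes had a median r of 0.247, above 0.1 in 16 of 20 mice). The procedure was tested on simulated data. Single values used two-sided exact permutation tests. *Fcrls*, of the homeostatic list, was not matched.

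The gene and all lists were chosen with earlier results of these data known. Genes were named by a rule: *Tmem119*, genes within 100 kb, the list members with the highest mean in the tissue described, the 10 genes with the highest r in each of 4 sets of libraries, and *Tgfbr2*; other list members are named where 5 or fewer passed a threshold or stood apart, after their values were seen. A gene that the rule would also name is not reported here. Alternatives were other pseudocounts (0.5, 5), minimum means, scalings, variance estimates, covariates (a neural retina score and a sex score), fits with 10 mice alone, and omission of every mouse in turn. The sex and neuronal percentage covariates of the authors were not used. Replicates are separate mice. Values were computed in Python 3.11.15 with scipy 1.17.1, pandas 2.3.3 and numpy 2.4.6, and plotted with matplotlib 3.10.9.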

Additional observations from a re-analysis of the deposited data

Results flagged for a closer look

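Of 40 groups of 5 mice examined for 5 genes (*Tmem119*, *Selplg*, *Cx3cr1*, *P2ry12* and *Tgfbr2*), 4 had a mouse far from the others. Chance gives about 1 in 20 such groups, but in 3 of the 4 all other mice were at 0, where any single value above 0 stands apart, so the count is not set against that rate. *Tmem119* was at 1.07 normalized counts in the retina of mouse 14 (control + PLX) and at 1.02 in that of mouse 18 (*Tgfbr2ΔEC* + PLX), with the other mice of each group listed at 0. Each value is about 1 read. *Selplg* was at 444.0 normalized counts in the retina of mouse 7 (*Tgfbr2ΔEC* – PLX), against 91.4 to 141 in the others. *Cx3cr1* was at 4.19 in the retina of mouse 17 (*Tgfbr2ΔEC* + PLX), against 0 in the others.

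For 14 named genes the response to PLX differed between the tissues within mice (retina minus choroid, log2, limma adjusted p at or under 0.05). Over all 21236 genes tested, 1.0% passed. Among homeostatic microglia genes these differences were -4.2 for *Selplg* (adjusted p = 1.94e-06), -3.89 for *Cx3cr1* (8.09e-07), -3.26 for *Siglech* (0.000919) and -1.26 for *P2ry13* (0.0164). Among general phagocyte genes they were -6.28 for *Ctss* and -5.62 for *Mpeg1* (4.57e-07 each), -3.93 for *C1qa* (7.05e-05), -3.45 for *Laptm5* (0.000123) and -2.26 for *Csf1r* (0.000252). In the opposite direction they were 4.38 for *Cd163* (4.09e-05), 4.07 for *Folr2* (0.00628), 2.35 for *Lyve1* (3.87e-05) and 1.88 for *Pf4* (0.0447). *Cd163* and *Pf4* were near the floor in retina without PLX, which limited their fall there. The stromal gene *Olfml3* had -2.11 (0.0205). The other genes examined did not pass, namely *P2ry12*, *Mrc1*, *F13a1*, *Stab1*, *Lum*, *Pdgfra*, *Dcn*, *Col1a1*, *Col1a2* and *Tgfbr2*.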

How the results depend on the processing

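All 178 alternative values of the 6 genotype tests of *Tmem119* stayed on the same side of the threshold, with adjusted p from 0.853 to 1.0. Those that use retinas with PLX compare groups at the floor and say nothing about stability. Leaving out a mouse of the other diet cannot move the log2 difference of a test within a single diet, so those values repeat the main one. The choroidal diet response was 0.00 to 0.08 under other settings and -0.08 to 0.12 without single mice. The retinal response moved with the pseudocount, which decides how far a value can fall towards 0. It was -6.74 in control and -6.61 in *Tgfbr2ΔEC* mice with a pseudocount of 0.5 and -3.79 and -3.66 with 5, and the difference between tissues was -6.71 and -3.76. Without the replicate block, that is with the tissues of a mouse not paired, this difference was -5.84 (standard error 0.2) and 302 rather than 213 genes passed; the block changed no count of list members by over 1.5 times. The correlation with the homeostatic microglia score was -0.152 without subtraction of group means. That with the general phagocyte score was -0.202 to 0.283 without single choroids, lowest without mouse 12. The stromal genes that rose in choroid numbered 3 with a pseudocount of 5, with no minimum mean and with either covariate, 8 without mouse 13 or 15, and 3 without any of mice 1, 3, 5, 6, 8, 11, 14, 17, 19 and 20. The stromal gene that fell in retina was 1 or 0 without single mice, and the stromal gene that differed between tissues was 0 with the neural retina score. The perivascular and tissue macrophage genes with a less negative response in retina were 2 at a minimum mean of 10 and 2 to 4 without single mice (2 without mouse 2, 4, 5 or 6). Genes called for diet in retina were 154 at a minimum mean of 10, and genes that differed between tissues were 182 to 338 without single mice, highest without mouse 15. The causes were not tested. At the depth of the retinas, a level with PLX between 0 and 3 reads could not be resolved.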
